A study of Homo sapiens with 8 samples.

Results

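Transcript levels of the RNA polymerase II machinery were compared in JVM13 cells with induced cyclin D1. The set comprised 38 named genes for polymerase subunits, the kinases of its tail, pausing factors and elongation factors. Each gene was represented by the probe set annotated to it alone that had the highest mean over all 8 arrays. In this way 37 of the 38 genes were measured, of 18231 genes on the array, and NELFE, a subunit of the pausing factor NELF, was not analysed here. A total of 95 probe sets were annotated to these 37 genes.

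JVM13 is an established human cell line of leukaemic B cells. In these cells doxycycline switched on cyclin D1, either in its wild-type form (3 arrays) or in the T286A form (3 arrays), while control cells held the vector without an insert (empty vector, 2 arrays). In T286A an alanine replaces the threonine whose phosphorylation marks the protein for degradation, and the submitters describe the protein as very stable. All groups, controls included, received 0.1 µg/mL doxycycline. The labels do not say whether replicates were separate cultures, so the p-values rest on a spread between samples that may be technical only. They give neither the number of independently made populations nor the time of induction.

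RNA polymerase II makes the messenger RNA of the cell. After initiation it pauses near the start of many genes, held by the factors DSIF and NELF, and is released when the kinase P-TEFb, a pair of CDK9 and a T-type cyclin, phosphorylates DSIF, NELF and the tail of the largest subunit. HEXIM1 keeps part of P-TEFb inactive on the 7SK RNA, and the super elongation complex delivers active P-TEFb to genes. These kinases are cyclin-dependent, like the partners of cyclin D1, but use other cyclins.

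Values are log2 expression made by robust multi-array averaging (RMA), which gives all arrays one distribution and so hides any global change in the amount of mRNA. All differences are log2 differences from a limma fit of all 8 arrays, given ± SE, and "called" means an adjusted p (Benjamini-Hochberg, 18231 genes) under 0.05. CCND1, the induced gene, was at 5.25 and 4.98 in the empty vector arrays, at 10.98, 11.14 and 11.07 with wild type and at 11.25, 10.86 and 10.95 with T286A. Of 8 measured B-cell markers all were no lower than 5.94, the median over all genes, of 8 T and NK markers 0 did, and of 7 myeloid markers 1 did, ITGAM. The mean over the markers of each list ranged over the arrays from 10.3 to 10.4, from 4.68 to 4.90 and from 4.80 to 4.94. One marker was called, CD22, lower with wild type (-0.40 ± 0.080, adjusted p = 0.0498), and its part in the results was not tested. Wild-type replicate 2 had the lowest limma array weight, 0.513 against 0.85 to 1.44, and values without it are given for CCNT2, CDK7, MED1, SUPT16H, ELL2 and TBP.

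The promoter windows of 4 genes are shown because they belong to the largest polymerase subunit (POLR2A), the P-TEFb inhibitor HEXIM1, and the elongation factors SUPT6H and SUPT16H, whose values lay on opposite sides of the empty vector arrays. They were chosen after the values were seen. Each holds the 250 bases before the annotated start, from RefSeq on GRCh38.p14, written in the direction of the gene. They lie at chr17:7484116-7484365 (plus strand), chr17:45148225-45148474 (plus), chr17:28661955-28662204 (plus) and chr14:21384020-21384269 (minus). Capitals mark matches to the words searched, on both strands: an E2F word in POLR2A, NRF1 and TATA words in HEXIM1, an ETS word in SUPT16H and none in SUPT6H.
POLR2A: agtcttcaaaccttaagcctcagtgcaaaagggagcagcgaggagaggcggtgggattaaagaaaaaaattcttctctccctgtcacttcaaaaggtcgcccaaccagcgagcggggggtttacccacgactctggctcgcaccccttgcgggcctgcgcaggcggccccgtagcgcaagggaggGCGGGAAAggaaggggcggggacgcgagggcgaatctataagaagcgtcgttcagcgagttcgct
HEXIM1: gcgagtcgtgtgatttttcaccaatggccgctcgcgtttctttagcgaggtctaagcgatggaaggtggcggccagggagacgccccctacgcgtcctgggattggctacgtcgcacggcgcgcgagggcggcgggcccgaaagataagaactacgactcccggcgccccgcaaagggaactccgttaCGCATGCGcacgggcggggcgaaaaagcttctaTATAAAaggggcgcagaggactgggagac
SUPT6H: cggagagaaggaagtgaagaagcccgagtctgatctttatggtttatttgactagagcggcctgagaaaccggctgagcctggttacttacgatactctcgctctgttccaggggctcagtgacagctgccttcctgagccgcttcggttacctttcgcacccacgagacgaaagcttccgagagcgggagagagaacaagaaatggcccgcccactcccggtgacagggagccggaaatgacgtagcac
SUPT16H: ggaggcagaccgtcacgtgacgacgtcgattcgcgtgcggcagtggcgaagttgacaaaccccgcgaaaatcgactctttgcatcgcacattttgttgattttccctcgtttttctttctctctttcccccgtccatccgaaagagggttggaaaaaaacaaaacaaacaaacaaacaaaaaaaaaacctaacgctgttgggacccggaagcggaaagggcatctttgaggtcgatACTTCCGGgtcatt

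Such windows were found for 33 of the 37 genes. Their median GC content was 60.8%, against 62.4% over 15843 protein-coding genes, and their median ratio of observed to expected CpG was 0.943 against 0.737. The E2F words were TTTCCCGC, TTTCGCGC, TTTGCCGC and TTTGGCGC, and 1 of the 33 windows held one, that of POLR2A (3.03%, against 3.72% of all windows). The ETS word CCGGAAGT was in 6 windows (18.2% against 5.09%), among them that of SUPT16H. The NRF1 core CGCATGCG was in 4 (12.1% against 2.49%), among them that of HEXIM1, and the YY1 word AAGATGGCG in 1 (3.03% against 0.751%). The TATA word TATAAA was in 2, HEXIM1 and GTF2B (6.06% against 9.23%). None of these words contains another. A match is a run of letters only, and binding was not measured.

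None of the 37 genes was called by limma in any comparison. With wild type against empty vector, 1.74% of all genes were called and 0 of the 37. With T286A against empty vector the values were 0.532% and 0, and with T286A against wild type 0.987% and 0. Those background shares amount to fewer than 1 call among 37 genes, so 0 is not a result about these genes. At an unadjusted p under 0.05 there was 1 of the 37 with wild type, SUPT16H, where 13.5% of all genes passed, and there were 2 with T286A, SUPT16H and ELL2, where 12.1% passed. In T286A against wild type there was 1, ELL2, where 13.6% passed. With both constructs averaged against empty vector, 1.40% of all genes and 0 of the 37 were called, and SUPT16H and ELL2 passed unadjusted, where 12.5% of all genes did.

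The differences were small in size, and arrays of the same group lay close together. With wild type they ran from -0.16 (ELL2) to 0.17 (SUPT16H), with a median of -0.0062 against 0.0016 over all genes. With T286A they ran from -0.43 (ELL2) to 0.21 (CCNT2), with a median of -0.0264 against -0.00301. Between the constructs they ran from -0.27 (ELL2) to 0.14 (MED1), with a median of -0.00822 against 0.000215. The sizes were below 0.1 in 31, 28 and 31 of the 37 in the 3 comparisons, or 83.8%, 75.7% and 83.8%, against 51.4%, 53.5% and 54.2% of all genes. The spread within groups had a median SD of 0.0587 for the 37 and 0.116 for all genes, and 36 of the 37 lay at or above the median level of all genes.

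The 95% intervals describe the probe set used for each gene and rest on a spread between arrays that may be technical only. They stayed within 0.5 on either side of 0 in 36 of 37 genes with wild type, the exception being MED12 (-0.51 to 0.38). With T286A 35 did, the exceptions being CCNT2 (-0.15 to 0.56) and ELL2 (-0.63 to -0.23), and between the constructs all 37 did. Over all genes the shares were 80.2%, 82.4% and 86.7%. A limit of 0.25 held for 24, 21 and 27 of the 37. The median half-width of the intervals was 0.165 with either construct and 0.148 between them. Changes well below that, and any change common to all mRNA, could not be detected here.

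**Figure D1:**
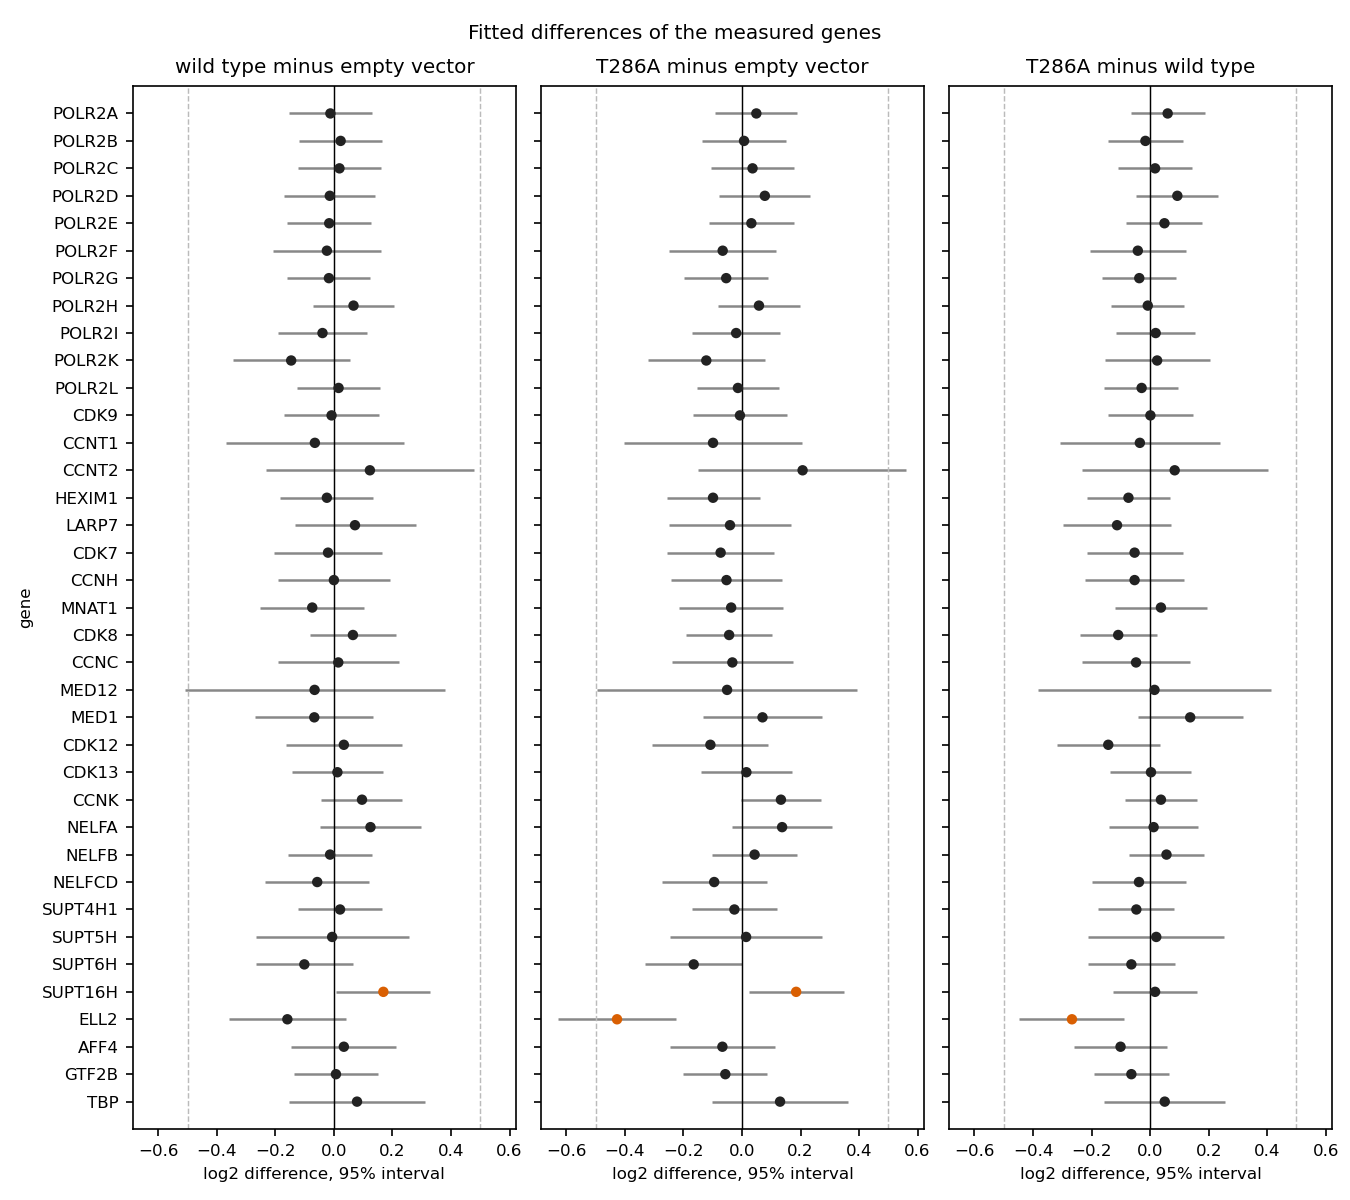
Fitted log2 differences of the 37 genes (points) with 95% intervals (lines) in wild type minus empty vector, T286A minus empty vector and T286A minus wild type; orange marks an unadjusted p under 0.05 and dashed lines stand at 0.5 on either side of 0. SUPT16H is orange with either construct and ELL2 in both comparisons that hold T286A, and most intervals cover 0 and lie inside the dashed lines.

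The 11 polymerase subunits measured showed differences from -0.15 to 0.07 with wild type and from -0.12 to 0.08 with T286A. POLR2A, the catalytic subunit with the repeat tail that the kinases phosphorylate, was at 8.60 and 8.55 with empty vector, at 8.57, 8.59 and 8.53 with wild type and at 8.61, 8.64 and 8.62 with T286A. The T286A arrays lay just above the others, and wild type overlapped with empty vector. The differences were -0.01 ± 0.061 with wild type (95% interval -0.15 to 0.13, adjusted p = 0.964) and 0.05 ± 0.061 with T286A (95% interval -0.09 to 0.19, adjusted p = 0.836). Its dimmer probe sets gave 0.19 and 0.04 with wild type and 0.16 and 0.22 with T286A (adjusted p over all probe sets from 0.482 to 0.920). POLR2B, which forms the active centre together with POLR2A, differed by 0.02 and 0.01.

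POLR2K, a small subunit shared by all 3 nuclear polymerases, had the lowest differences of the subunits. It was at 11.74 and 11.64 with empty vector, at 11.68, 11.52 and 11.42 with wild type and at 11.59, 11.57 and 11.54 with T286A. The T286A arrays were all below empty vector and wild-type replicate 1 lay between the controls. The differences were -0.15 ± 0.088 (adjusted p = 0.538) and -0.12 ± 0.088 (adjusted p = 0.663), and the mean over its 2 probe sets gave -0.04 in each. POLR2H, another shared subunit, was at 11.04 and 11.06 with empty vector and between 11.08 and 11.13 on all 6 arrays of the constructs, so neither construct overlapped with empty vector while the constructs overlapped with each other. The differences were 0.07 ± 0.061 and 0.06 ± 0.061 (adjusted p = 0.714 and 0.792). POLR2D, which sits with POLR2G on the stalk of the enzyme, was at 9.64 and 9.77 with empty vector, at 9.67, 9.68 and 9.71 with wild type and at 9.82, 9.75 and 9.77 with T286A, and T286A minus wild type was 0.09 ± 0.061 (adjusted p = 0.543). The remaining subunits, POLR2C, POLR2E, POLR2F, POLR2G, POLR2I and POLR2L, differed by at most 0.07 in size in every comparison in their brightest probe sets. Other probe sets of these genes differed more. A POLR2C probe set gave -0.20 for T286A minus wild type (unadjusted p = 0.0201, adjusted p = 0.330 over all probe sets). The dimmest of POLR2E gave 0.26 with wild type (unadjusted p = 0.0176, adjusted p = 0.298).

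In the P-TEFb group the kinase CDK9 gave nearly equal values in its brightest probe set, at 8.76 and 8.69 with empty vector, 8.67, 8.69 and 8.80 with wild type and 8.75, 8.70 and 8.71 with T286A. The groups overlapped, and the differences were -0.01 ± 0.071 in both (95% interval -0.17 to 0.15 with wild type and -0.17 to 0.16 with T286A). A second CDK9 probe set of nearly equal mean differed by -0.27 with wild type (unadjusted p = 0.0246, adjusted p = 0.335 over all probe sets) and by -0.13 with T286A, so the probe sets disagree. CCNT1, the main cyclin partner of CDK9, differed by -0.06 ± 0.13 and -0.10 ± 0.13, with within-group SDs of 0.15 to 0.19. CCNT2, its alternative partner, was the 1 gene of the 37 below the median level of all genes; it was at 5.26 and 4.94 with empty vector, 5.03, 5.46 and 5.17 with wild type and 5.15, 5.50 and 5.27 with T286A. Its groups overlapped and its differences were 0.12 ± 0.16 and 0.21 ± 0.16 (adjusted p = 0.807 and 0.679). These depended on single arrays: without empty vector replicate 1 they were 0.28 and 0.36, without empty vector replicate 2 -0.03 and 0.05, and without wild-type replicate 2 the value with wild type was 0.004. LARP7, which protects 7SK RNA, was at 9.91 and 9.72, then 9.82, 9.95 and 9.90 with wild type and 9.66, 9.81 and 9.86 with T286A, with differences of 0.07 ± 0.090 and -0.04 ± 0.090 (adjusted p = 0.803 and 0.920). With 1 array left out the differences of LARP7 ran from -0.02 to 0.165 with wild type and from -0.133 to 0.052 with T286A.

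HEXIM1, the inhibitor of P-TEFb, was at 10.41 and 10.37 with empty vector, 10.32, 10.32 and 10.44 with wild type and 10.31, 10.25 and 10.31 with T286A. T286A arrays lay below all others and wild type spanned empty vector. The differences were -0.02 ± 0.069 with wild type and -0.10 ± 0.069 with T286A (adjusted p = 0.929 and 0.654), and T286A minus wild type was -0.07 ± 0.062 (adjusted p = 0.644). All of its 5 probe sets were below empty vector with T286A, from -0.22 to -0.01, and 3 of them had an unadjusted p under 0.05 (0.0247, 0.0379 and 0.0266; adjusted p from 0.380 to 0.438 over all probe sets). With wild type 4 of the 5 were negative, and the range was -0.193 to 0.01. The lowest had an unadjusted p of 0.0443 (adjusted p = 0.414 over all probe sets), and its T286A minus wild type was -0.03. The mean over the 5 gave -0.15 with T286A (unadjusted p = 0.0347, adjusted p = 0.355) and -0.08 with wild type. Centred on housekeeping genes, the difference of the brightest probe set was 0.03 with wild type and -0.04 with T286A, so its sign with wild type depends on the scaling.

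The kinase of the initiation factor TFIIH, which marks the polymerase tail at the start of transcription, is CDK7 with cyclin H (CCNH) and MNAT1. CDK7 was at 9.77 and 9.71 with empty vector, 9.71, 9.62 and 9.82 with wild type and 9.68, 9.59 and 9.72 with T286A. MNAT1 was at 8.97 and 9.05, then 8.97, 8.88 and 8.95 and then 9.07, 8.88 and 8.97. In both genes the groups overlapped, and the difference of CDK7 with wild type was -0.02, or 0.03 without wild-type replicate 2. The differences of the 3 genes ran from -0.07 to 0.00 with wild type and from -0.07 to -0.04 with T286A, and the lowest adjusted p was 0.754.

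Mediator links transcription factors to the polymerase, and CDK8, cyclin C (CCNC) and MED12 form its detachable kinase module. CDK8 was at 9.33 and 9.36 with empty vector, 9.47, 9.36 and 9.42 with wild type and 9.31, 9.30 and 9.31 with T286A. The T286A arrays were below all others, by little, and T286A minus wild type was -0.11 ± 0.057 (adjusted p = 0.453). In its other probe set the groups overlapped, with T286A minus wild type at -0.066 and T286A minus empty vector at 0.042. CCNC differed by 0.02 and -0.03. MED12 was at 6.55 and 6.54 with empty vector and 6.48, 6.53 and 6.49 with T286A, but at 6.94, 6.14 and 6.37 with wild type, so the wild-type arrays lay on both sides of the others and no difference could be resolved (-0.07 ± 0.19, adjusted p = 0.931). MED1, the subunit that nuclear receptors bind, was at 9.74 and 9.77 with empty vector, 9.83, 9.60 and 9.64 with wild type and 9.77, 9.79 and 9.92 with T286A. Its difference between the constructs, 0.14 ± 0.079, was the highest of the 37 genes and was not called (adjusted p = 0.489); without wild-type replicate 2 it was 0.09. Its other probe sets gave 0.03 and -0.12, and the mean over all 3 gave 0.01.

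CDK12 and CDK13 pair with cyclin K (CCNK) and phosphorylate the polymerase in the body of genes. With wild type the differences of all 3 genes were positive. With T286A that of CDK12 was negative and the others were positive. CCNK was at 11.23 and 11.27 with empty vector, 11.33, 11.36 and 11.34 with wild type and 11.38, 11.38 and 11.39 with T286A. The 3 groups did not overlap. The differences were 0.10 ± 0.060 with wild type (95% interval -0.04 to 0.23, adjusted p = 0.559) and 0.13 ± 0.060 with T286A (95% interval -0.01 to 0.27, adjusted p = 0.432), not called, and its other probe set gave 0.04 and 0.06. CDK12 was at 9.35 and 9.38, then 9.36, 9.34 and 9.50 with wild type and 9.32, 9.13 and 9.33 with T286A. Its differences were 0.034 with wild type and -0.108 with T286A, and T286A minus wild type was -0.14 ± 0.077 (adjusted p = 0.463). Its 6 probe sets ranged from -0.17 to 0.23 in that comparison. CDK13 differed by 0.01 and 0.02.

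**Figure D2:**
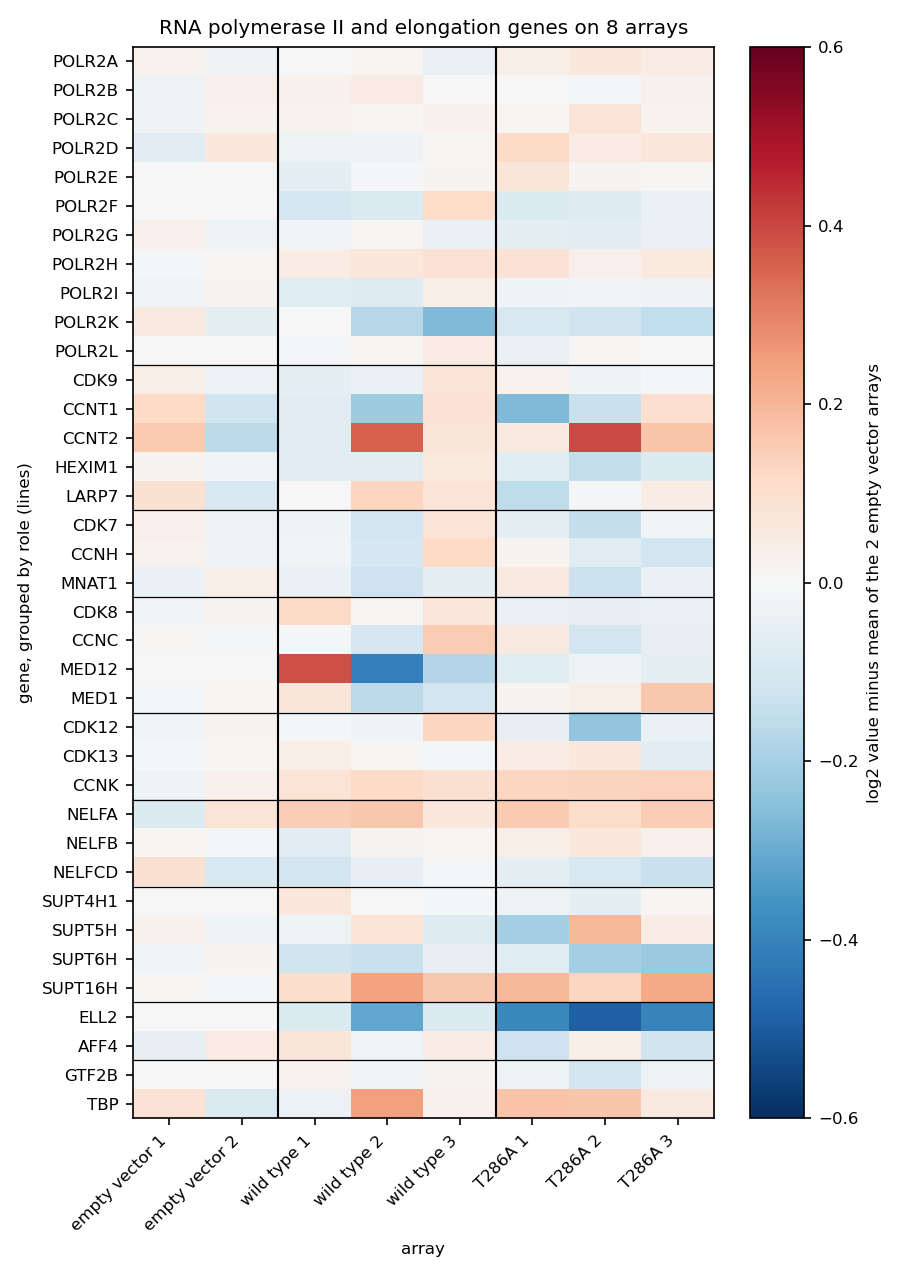
Heat map of the 37 genes (rows, grouped by role) on the 8 arrays (columns), coloured by log2 value minus the mean of the 2 empty vector arrays. Most cells are pale; ELL2 is blue on the T286A arrays, SUPT16H is red on all 6 construct arrays, and MED12 differs between the wild-type arrays.

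Of the pausing factor NELF, 3 of 4 listed subunits were measured. NELFA was at 7.79 and 7.96 with empty vector, 8.02, 8.04 and 7.94 with wild type and 8.03, 7.98 and 8.02 with T286A. The T286A arrays were above both controls, and one wild-type array was below the higher control. The differences were 0.13 ± 0.075 and 0.14 ± 0.075 (adjusted p = 0.537 and 0.530), and NELFA had a single probe set. They were 0.04 and 0.05 without empty vector replicate 1 and 0.21 and 0.22 without empty vector replicate 2. NELFCD was at 10.45 and 10.27, then 10.24, 10.31 and 10.35 and then 10.31, 10.26 and 10.23, with differences of -0.06 ± 0.078 and -0.10 ± 0.078 (adjusted p = 0.825 and 0.714). With 1 array left out these ran from -0.148 to 0.033 with wild type and from -0.185 to -0.004 with T286A. NELFB differed by -0.01 and 0.04.

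DSIF, the other factor of the paused complex, is made of SUPT4H1 and SUPT5H. In their brightest probe sets SUPT4H1 differed by 0.02 and -0.03, and SUPT5H by -0.01 and 0.01 (95% intervals -0.27 to 0.26 and -0.25 to 0.28). Dimmer probe sets differed more. That of SUPT4H1 gave 0.15 and 0.17. For SUPT5H, the probe set near 5.68 gave 0.13 and 0.26, and that near 4.91 gave -0.22 (unadjusted p = 0.0498, adjusted p = 0.433 over all probe sets) and -0.10. SUPT6H, a histone chaperone that travels with the elongating polymerase, was at 7.99 and 8.02 with empty vector, 7.88, 7.87 and 7.96 with wild type and 7.93, 7.81 and 7.78 with T286A. Every construct array was below both controls. The differences were -0.10 ± 0.072 (adjusted p = 0.619) and -0.165 ± 0.072 (unadjusted p = 0.0507, adjusted p = 0.415). Its probe sets disagreed: with T286A 2 of all 4 were negative, from -0.165 to 0.14, and the mean over the 4 gave -0.01.

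SUPT16H, the larger subunit of the histone chaperone FACT, which acts in transcription and in DNA replication, was at 10.99 and 10.98 with empty vector, 11.09, 11.22 and 11.14 with wild type and 11.18, 11.11 and 11.21 with T286A. All 6 construct arrays were above both controls and the constructs overlapped. The differences were 0.17 ± 0.070 with wild type (95% interval 0.01 to 0.33, unadjusted p = 0.0424, adjusted p = 0.344) and 0.19 ± 0.070 with T286A (95% interval 0.02 to 0.35, unadjusted p = 0.0291, adjusted p = 0.333), or 1.12-fold and 1.14-fold. Without wild-type replicate 2 the value with wild type was 0.13 (unadjusted p = 0.105). The constructs differed by 0.02 (T286A minus wild type, 95% interval -0.13 to 0.16), so a difference between the constructs was not detected. SSRP1, its partner in FACT, was measured outside the set and differed by 0.01 (adjusted p = 0.961) and 0.13 (adjusted p = 0.457); it was named after its values were seen.

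ELL2, an elongation factor of the super elongation complex with high levels in plasma cells, had the lowest differences of the set with each construct. It was at 10.70 and 10.70 with empty vector, 10.61, 10.38 and 10.62 with wild type and 10.31, 10.20 and 10.29 with T286A. The 3 groups did not overlap, and wild-type replicate 2 lay nearest to the T286A arrays. T286A minus empty vector was -0.43 ± 0.088 (95% interval -0.63 to -0.23, unadjusted p = 0.00112, adjusted p = 0.084), or 1.34-fold lower. Wild type minus empty vector was -0.16 ± 0.088 (unadjusted p = 0.104, adjusted p = 0.492), and T286A minus wild type was -0.27 ± 0.078 (unadjusted p = 0.00871, adjusted p = 0.197). Without wild-type replicate 2 the last 2 were -0.08 (adjusted p = 0.677) and -0.34 (adjusted p = 0.0856).

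The T286A difference of ELL2 was not called in the fit described above and was called in other fits of the same arrays. The adjusted p was 0.0247 when genes below the median level were left out, 0.0347 with limma array weights and 0.00179 with an intensity trend and a robust prior. It ranged up to 0.388 over the 15 alternatives, and the difference from -0.45 to -0.34. The call thus differed between fits. The sign was negative in each of the 15 alternatives. Since every T286A array lay below both controls, leaving out or weighting arrays could not have changed it.

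Of the 5 ELL2 probe sets, 4 showed the same order of group means and 1 did not. With T286A those 4 were -0.43, -0.46, -0.40 and -0.32, with adjusted p over all probe sets from 0.123 to 0.202. With wild type the same 4 were -0.159, -0.206, -0.166 and -0.045, with adjusted p from 0.496 to 0.901. In the last of them the wild-type arrays lay on both sides of empty vector. In the third, a wild-type array at 9.823 was above a control at 9.812. The step from empty vector to wild type was thus not resolved in these. The fifth was at 10.20 and 10.19 with empty vector, 9.99, 9.99 and 9.79 with wild type and 10.05, 10.07 and 10.11 with T286A. It was lowest with wild type (-0.27, adjusted p = 0.247) and differed by -0.11 with T286A (adjusted p = 0.720). All 5 were negative with each construct, and which transcripts each probe set reads was not examined here.

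**Figure D3:**
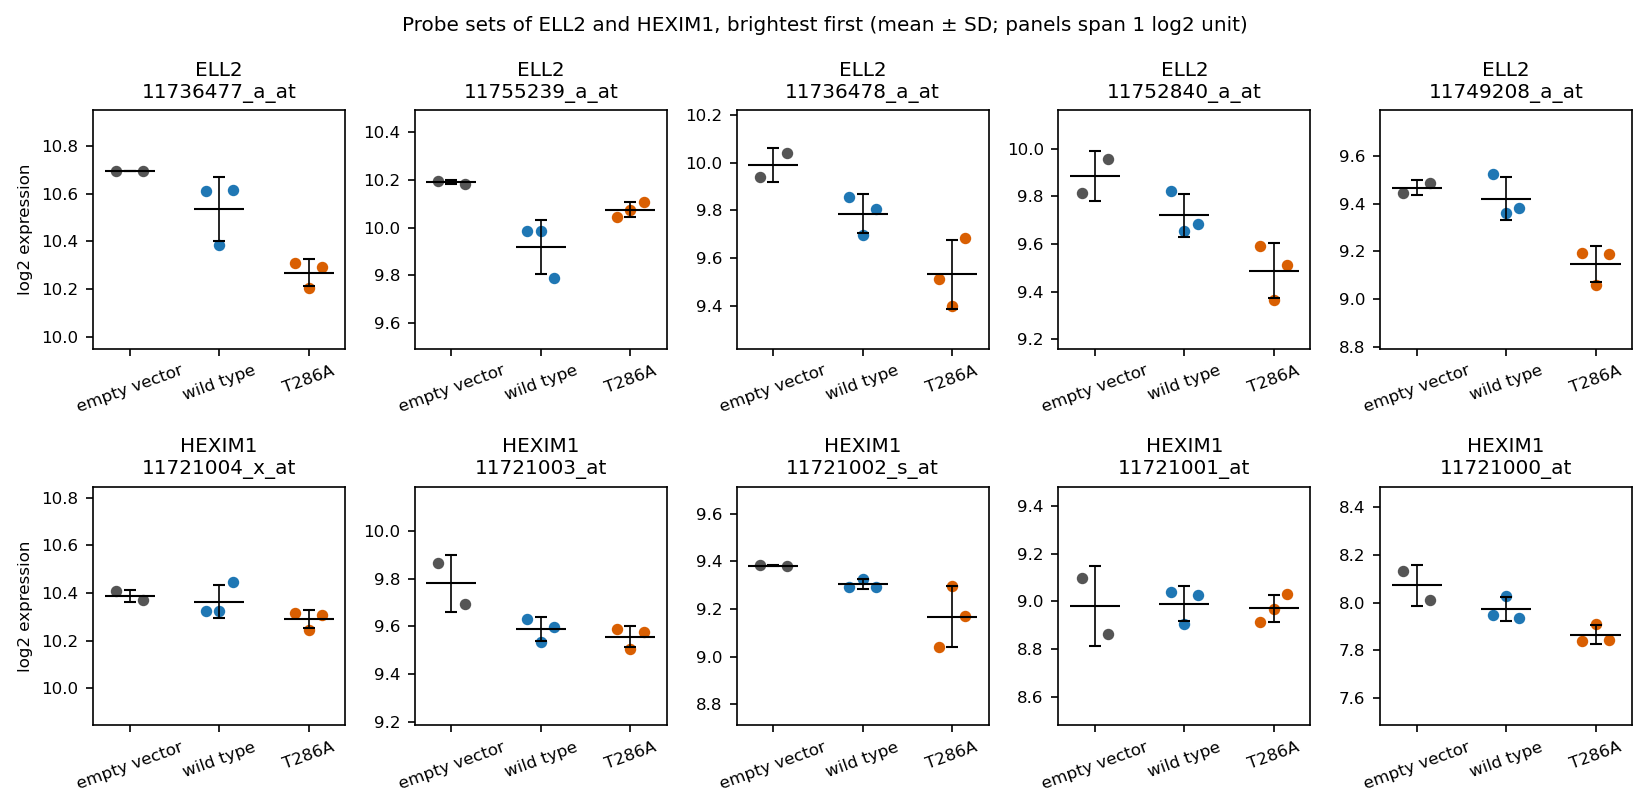
log2 expression of the 5 probe sets of ELL2 (top) and of HEXIM1 (bottom) on each array, with group mean and SD, brightest first; each panel spans 1 log2 unit. The group means of 4 of the 5 ELL2 probe sets step down from empty vector to wild type to T286A. The second is lowest with wild type. In the fourth and the last ELL2 panel, wild type overlaps with empty vector. HEXIM1 probe sets lie lower by at most 0.22 with T286A.

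AFF4, the scaffold of the super elongation complex, was at 9.17 and 9.27 with empty vector, 9.29, 9.20 and 9.27 with wild type and 9.10, 9.26 and 9.10 with T286A. The groups overlapped, with differences of 0.03 ± 0.078 and -0.07 ± 0.078 (adjusted p = 0.908 and 0.818). Its dimmest probe set, near 4.57, was lower with both constructs (-0.38 and -0.30, adjusted p = 0.139 and 0.281 over all probe sets), while its brightest was not.

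The initiation factors gave small differences too. GTF2B, which places the polymerase at the start site, was at 10.63 and 10.63 with empty vector, 10.65, 10.62 and 10.65 with wild type and 10.60, 10.52 and 10.60 with T286A, so that T286A lay below all others by little (-0.06 ± 0.063, adjusted p = 0.804). TBP, the TATA-binding protein, was at 8.32 and 8.15, then 8.20, 8.48 and 8.26 and then 8.40, 8.40 and 8.28, with overlapping groups and differences of 0.08 ± 0.10 and 0.13 ± 0.10 (adjusted p = 0.809 and 0.694). Without wild-type replicate 2 the value of TBP with wild type was -0.004.

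**Figure D4:**
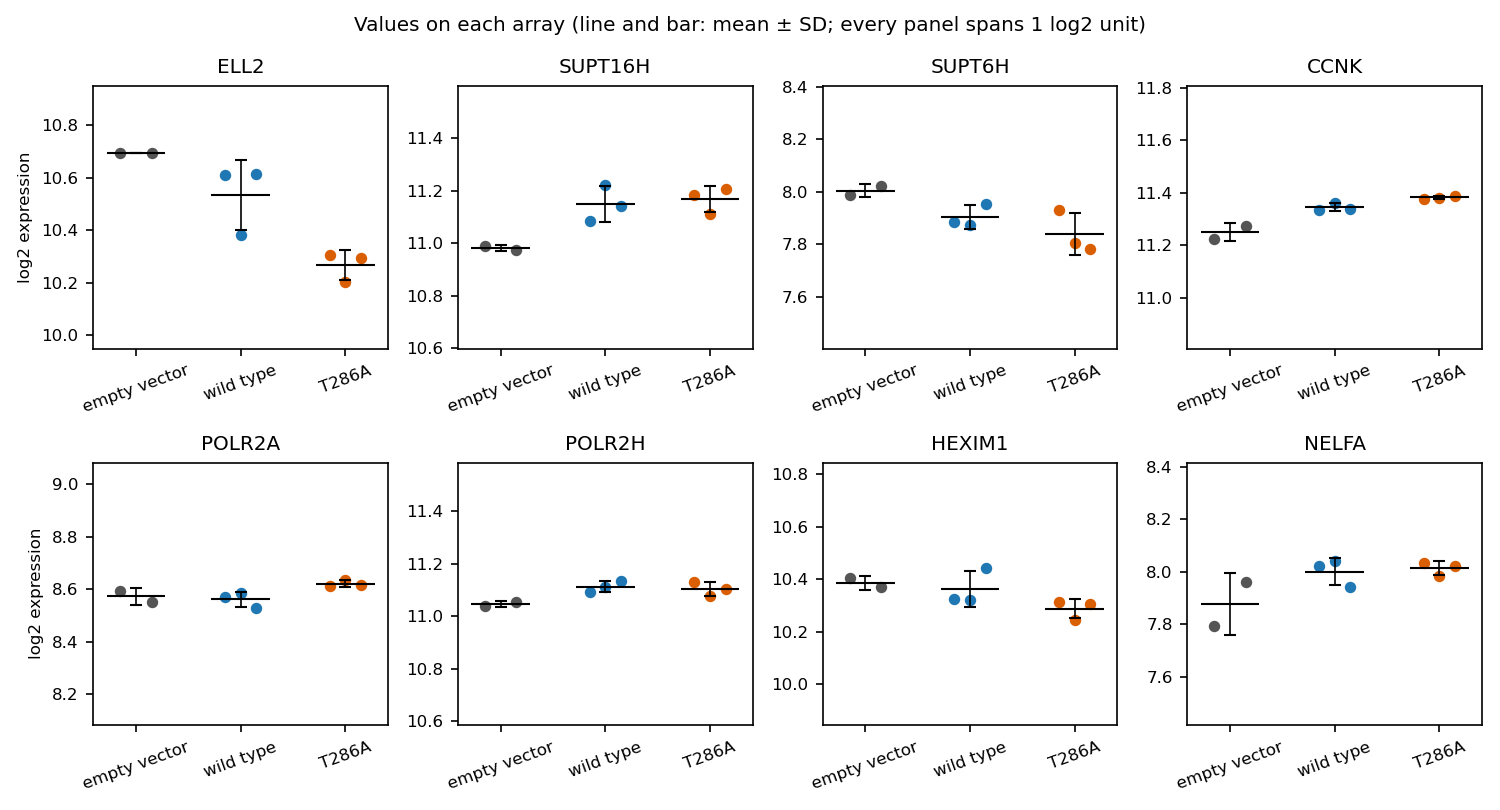
log2 expression of 8 genes on each array in the 3 groups, with group mean and SD (lines and bars); each panel spans 1 log2 unit. ELL2 steps down to 10.27 on average with T286A. SUPT16H and CCNK lie slightly above empty vector with both constructs, and POLR2A differs little between the groups.

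Groups that did not overlap were common in these data, since empty vector had only 2 arrays. With wild type 5 of the 37 genes had no overlap with empty vector (13.5%, against 30.5% of all genes), and with T286A 19 did (51.4% against 31.9%), 8 above and 11 below, where 15.2% of all genes were above and 16.7% below. Between the constructs 9 did (24.3% against 19.8%). On all arrays of both constructs 3 genes were above both controls, POLR2H, CCNK and SUPT16H (6.68% of all genes were), and 2 below, SUPT6H and ELL2 (6.88%). These comparisons share the 2 control arrays.

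Another 106 genes of the pathway were measured, covering the rest of Mediator, the initiation factors, the PAF1 complex, other partners of the super elongation complex, tail phosphatases and termination factors. None was called by limma in any comparison. With wild type, 4 had an unadjusted p under 0.05 on the higher side and 1 on the lower side. With T286A the counts were 9 and 5, and between the constructs 5 and 5. Together these were 4.72%, 13.2% and 9.43% of the 106, against 13.5%, 12.1% and 13.6% of all genes. Their median differences were 0.024, 0.0372 and -0.00942. MED13L, a Mediator kinase-module subunit, had the smallest p with wild type (0.46 ± 0.11, adjusted p = 0.0933), and was at 0.38 ± 0.11 with T286A (adjusted p = 0.191). It was at 5.16 and 5.33 with empty vector, 5.60, 5.82 and 5.68 with wild type and 5.66, 5.46 and 5.74 with T286A, a low signal in which every construct array was above the controls.

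INTS6, a subunit of the Integrator complex, which ends transcription of paused polymerases, was at 7.24 and 7.33 with empty vector, 7.39, 7.37 and 7.25 with wild type and 7.55, 7.80 and 7.71 with T286A. T286A stood above both other groups, by 0.41 ± 0.091 over empty vector (adjusted p = 0.102) and by 0.35 ± 0.081 over wild type (adjusted p = 0.110). GTF2H5, a small subunit of TFIIH, was at 9.735 and 9.75 with empty vector, 9.65, 9.51 and 9.55 with wild type and 9.54, 9.43 and 9.45 with T286A. All construct arrays lay below the controls, with differences of -0.17 ± 0.072 and -0.27 ± 0.072 (adjusted p = 0.343 and 0.159). GTF2A1, a subunit of TFIIA, was at 5.76 and 5.75 with empty vector, 5.96, 5.98 and 6.18 with wild type and 5.93, 5.77 and 6.01 with T286A. All construct arrays lay above the controls, with differences of 0.28 ± 0.098 and 0.15 ± 0.098 (adjusted p = 0.242 and 0.631). EAF2, a binding partner of ELL proteins, was at 10.76 and 10.77 with empty vector, 10.83, 10.73 and 10.86 with wild type and 10.62, 10.63 and 10.54 with T286A. Like ELL2 it was lowest with T286A, with differences of 0.04 ± 0.069, -0.17 ± 0.069 and, between the constructs, -0.21 ± 0.062 (adjusted p = 0.876, 0.375 and 0.202).

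Over all 95 probe sets of the 37 genes, 0 were called by limma against all 45220 named probe sets. At an unadjusted p under 0.05 there were 7 with wild type, 9 with T286A and 5 between the constructs (7.37%, 9.47% and 5.26%, against 11.5%, 10.5% and 11.7% of all probe sets). Of the 9 with T286A, 8 were lower, 4 of ELL2, 3 of HEXIM1 and 1 of AFF4, and the 1 higher was that of SUPT16H. Over all probe sets 2445 were higher and 2307 lower in that comparison. Probe sets of the same gene read the same samples, so the 8 are not separate results.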

How the data were processed

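RNA of 8 JVM13 samples was measured on Affymetrix arrays. The authors deposited log2 expression values made by RMA with R 3.5.0, per the submitters' processing notes, and no array images were used here. Probe sets were named from the platform's annotation: of 48864, 10 controls were left out, 45220 had 1 gene, 1325 had several and 2309 had none. The deposited log2 values were fitted with limma 3.58.1 in R 4.3.3 (lmFit and eBayes, 1 mean per group, all 8 arrays), with Benjamini-Hochberg adjustment over 18231 genes. Precision is limited by the number of arrays. The fit was tested on simulated data. Values on every array were given for genes called in any comparison, for the 2 genes of each role with the smallest unadjusted p in any pairwise comparison, for those with the largest difference each way, and for the 2 other pathway genes of smallest p per comparison; POLR2A, POLR2H, CDK9 and MED12 were added after their values were seen. The members and gene lists were chosen with earlier results of these data known. Alternatives were the probe set rule, a level filter, housekeeping centring, array weights, the arrays fitted, the prior, a replicate block and leaving out each array. Whether replicate numbers pair the samples was not settled. The NRF1 word was shortened to its core after matches to a longer form had been counted.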

Additional observations from a re-analysis of the deposited data

How the results depend on the processing

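No gene of the set was called with wild type under any of the 15 alternatives. Among genes at or above the median level, 1 gene of the set was called with T286A and 1 with both constructs averaged, ELL2 each time (adjusted p = 0.0247 and 0.0487), and all genes called numbered 629 with wild type, 527 with T286A, 624 with both and 381 between the constructs. With a trend and robust prior, ELL2 was the 1 gene called with T286A (adjusted p = 0.00179) and the 1 between the constructs (0.0249), and 2 were called with both constructs, ELL2 (0.0102) and SUPT16H (0.0402); all genes called numbered 747, 626, 738 and 602. With array weights 1 was called with T286A, ELL2 (0.0347), with 317 genes in all, 436 were called with both constructs, and the median difference of the set with wild type was 0.0113. The mean over probe sets gave 190 genes called with T286A and a median of -0.00711. Fitting the compared groups only gave 68 genes called with wild type and 4 with T286A. The main counts were 317, 97, 255 and 180. The cause of these differences was not tested.

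Centring on 10 housekeeping genes moved the median of the set to 0.0484 with wild type, 0.0369 with T286A and 0.0562 with both, so the direction of these medians depends on the scaling, and 194 genes were called with T286A. Positive differences then numbered 29, 27 and 31 of 37, against 18, 15 and 18. The same centring moved the median over all genes to 0.0562, 0.0603 and 0.0588, so the shift was not particular to the set. The share of calls that were higher went from 34.7% to 53.0%, from 63.9% to 79.9% and from 50.2% to 70.5%.

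With the replicate number as a block, 71, 3, 7 and 86 genes were called in the 4 comparisons and 0 of the set. Same-numbered samples correlated at -0.091 to 0.119 in their deviations, with 1 of 7 pairs over 0.1. Differently numbered samples ran from -0.11 to 0.096. The deviations of the 2 empty vector arrays mirror each other, so these correlations cannot show whether samples were paired. Leaving out 1 array gave 22 to 196 genes called with wild type, 1 to 87 with T286A, 3 to 199 with both and 70 to 128 between the constructs, and 0 of the set each time. The median of the set then ran from -0.0209 to 0.011, from -0.0264 to -0.0114, from -0.0135 to 0.00204 and from -0.018 to -0.00344. The adjusted p of ELL2 with T286A was 0.051 without wild-type replicate 2.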
